A study of Mus musculus with 12 samples.

Results

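The interferon-inducible GTPases were followed in ileum tumours of APCmin mice, in which a truncating Apc mutation gives intestinal adenomas. They were chosen by name: a gene belonged to the set when a probe symbol of the unnormalized array table was Igtp, Ifi47, Irgm1, Irgm2, Iigp1, Iigp2, Tgtp, Gbp2, Gbp3 or Gbp6. Of these 10 names, 9 were carried by a probe. No probe was named Irgm2, but Iigp2 is an older RefSeq name of the Irgm2 gene, so the 9 names on the array stand for 9 genes, and Irgm2 was read through the Iigp2 probe. Tgtp is an older name of Tgtp1. The 9 genes had 15 probes among the 25697 on the array, and 8 of them passed the detection filter and were tested among 10967 genes.

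Total RNA of 12 tumour samples was hybridised, 1 Illumina bead array each, from FVB/N mice aged 3 to 4 months. Arrays 1 to 6 are labelled FVBN/APCmin and arrays 7 to 12 iPGC-1β/APCmin, a name that stands for APCmin mice with extra PGC-1β, a transcriptional coactivator of mitochondrial genes. Both groups carry the Apc mutation, and neither the construct, its promoter nor the number of mice is described in the sources used here. Nothing says that the tumours came from separate animals, so p-values measure only the spread between these samples.

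Interferon-γ binds its receptor, activates the kinases JAK1 and JAK2, and through transcription factors such as IRF1 induces a large group of GTPases that defend cells against microbes living inside them. In the mouse these are mainly the immunity-related GTPases (IRG proteins) and the guanylate-binding proteins (GBPs). Regulatory IRG proteins, Irgm1, Irgm2 and Igtp (also called Irgm3), sit on the cell's own membranes and keep the effector IRG proteins inactive there. Effectors such as Ifi47 (Irgd), Iigp1 (Irga6) and Tgtp1 (Irgb6) gather on the vacuoles that hold parasites such as Toxoplasma, where GBPs join them and the vacuole is broken open. In the gut the stimulus comes largely from T cells, innate lymphocytes and natural killer cells.

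Promoters that respond to interferon-γ can hold GAS elements, searched here as TTCNNNGAA. IRF1 and its relatives bind interferon-stimulated response elements, searched here by their core: GAAA, any 2 bases, then GAAA (the ISRE core). Both strands of the 250 bases before each start in a RefSeq table (GRCm38.p6) were read, for 7 of the 9 genes. The ISRE core was found before 6 of these 7 genes (6 of their 8 starts), against 2.98% of all 32851 promoters in the table. A GAS match was found before 3 of the 7, Igtp, Irgm2 and Tgtp1, against 7.02% of all promoters. In each of those 3 genes the GAS match lay 2 bases upstream of the ISRE core. Irgm1 and Gbp3 each held an overlapping pair of ISRE cores. These matches describe letters in a window and are not evidence of binding. Because the shared layout is easiest to see in the letters, the last 100 bases before the start are printed 5′ to 3′ on the gene's strand, from RefSeq, with matches to either motif in capitals.
Igtp: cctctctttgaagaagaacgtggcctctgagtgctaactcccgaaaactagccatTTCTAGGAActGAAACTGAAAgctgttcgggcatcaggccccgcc
Irgm2: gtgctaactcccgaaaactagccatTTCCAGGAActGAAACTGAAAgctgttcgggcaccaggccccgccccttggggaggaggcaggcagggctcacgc
Tgtp1: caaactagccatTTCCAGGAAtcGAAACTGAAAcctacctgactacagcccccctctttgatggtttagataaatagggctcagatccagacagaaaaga
Irgm1: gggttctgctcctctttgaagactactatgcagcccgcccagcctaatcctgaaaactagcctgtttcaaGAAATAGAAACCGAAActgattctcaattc
Gbp2: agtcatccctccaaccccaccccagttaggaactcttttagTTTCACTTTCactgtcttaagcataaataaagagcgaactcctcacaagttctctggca
Gbp3: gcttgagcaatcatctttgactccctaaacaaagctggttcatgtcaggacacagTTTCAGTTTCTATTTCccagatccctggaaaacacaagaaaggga
The windows lie at chr11:58199456-58199555 (Igtp, plus strand), chr11:58214877-58214976 (Irgm2, plus), chr11:48992247-48992346 (Tgtp1, minus), chr11:48871421-48871520 (Irgm1, minus), chr3:142620563-142620662 (Gbp2, plus) and chr3:142559944-142560043 (Gbp3, plus). In Gbp2 and Gbp3 the ISRE core is on the opposite strand and reads as its reverse complement. Gbp3 has a second start without a match. Igtp and Irgm2, which neighbour each other on chromosome 11, share an unbroken run of 55 bases in their 250-base windows, while Irgm2 and Tgtp1 share at most 20. Ifi47 held neither motif in these 250 bases. Gbp6 and Iigp1 were not searched.

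Raw array medians ran from 139.3 to 167.9 intensity units in FVBN/APCmin and from 145.6 to 170.5 in iPGC-1β/APCmin, and 12858 to 14445 probes were detected per array. The single probe of Ppargc1b, the gene of PGC-1β, averaged 8.41 ± 0.65 in the FVBN/APCmin arrays against 7.86 ± 0.44 in the other group (log2, SD, n = 6 each) (limma adjusted p = 0.296). Its signal was thus not the higher one under the iPGC-1β label, and the probe's place in the transcript is not known here. All directions below follow the labels. All 14 epithelial markers on the array were detected on all 12 arrays, and 6 of 8 ileal enterocyte markers were, whereas Slc10a2 and Fabp2 were detected on none. Of 12 adenoma and Wnt markers, 6 were detected on all arrays. Some of these lists also moved with the genotype. Ileal enterocyte markers differed downward for 6 of 6 tested (median -1.15), and Osta and Nr1h4, of bile acid handling, were called lower. Adenoma and Wnt markers differed upward for 10 of 11 (median 1.03) and endothelial markers for 7 of 10 (median 0.59), with none called over all 12 arrays. With arrays 6 and 7 left out, 6 adenoma and Wnt and 5 endothelial markers were called higher, against 1056 of all 10967 genes. Epithelial markers had a median of -0.24 and none called. The part of these lists in the GTPase differences was not tested. Array 6 (FVBN/APCmin) and array 7 (iPGC-1β/APCmin) went against their groups in lymphocyte genes: the lymphocyte level, the mean of 40 tested T, NK, B and plasma cell markers after centring each gene, was -0.77 on array 6 and 1.65 on array 7. It was 1.21 to 1.58 on arrays 1 to 5 and -1.93 to -1.10 on arrays 8 to 12. These 2 arrays also went against their groups in other lists. The adenoma and Wnt level was 0.29 on array 6 (arrays 1 to 5: -0.77 to -0.56) and -0.86 on array 7 (arrays 8 to 12: -0.22 to 1.83). The macrophage and dendritic cell level was -0.76 on array 6 and 0.61 on array 7. The ileal enterocyte level, 0.71 and -0.28, stayed inside the range of each group. Results are therefore also given without arrays 6 and 7.

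The comparison of the genotypes found some of the GTPases lower in the iPGC-1β/APCmin tumours. Igtp, Ifi47, Iigp2 (Irgm2) and Gbp2 fell 2.94- to 4.82-fold, while Irgm1, Gbp3, Gbp6 and Tgtp did not pass the test. Thus 4 of 8 tested GTPases were called lower and none higher (limma, adjusted p below 0.05), against 1.23% of all 10967 genes called lower and 2.22% called higher. The difference was below 0 for 8 of 8, as for 51.4% of all genes, and its median was -1.20 against -0.01 over all genes. Differences are iPGC-1β/APCmin minus FVBN/APCmin in log2, with the standard error (SE) and n = 6 arrays a group. A lower value in such bulk RNA can come from fewer cells of a type or from less RNA per cell, and these cannot be told apart.

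**Figure D1:**
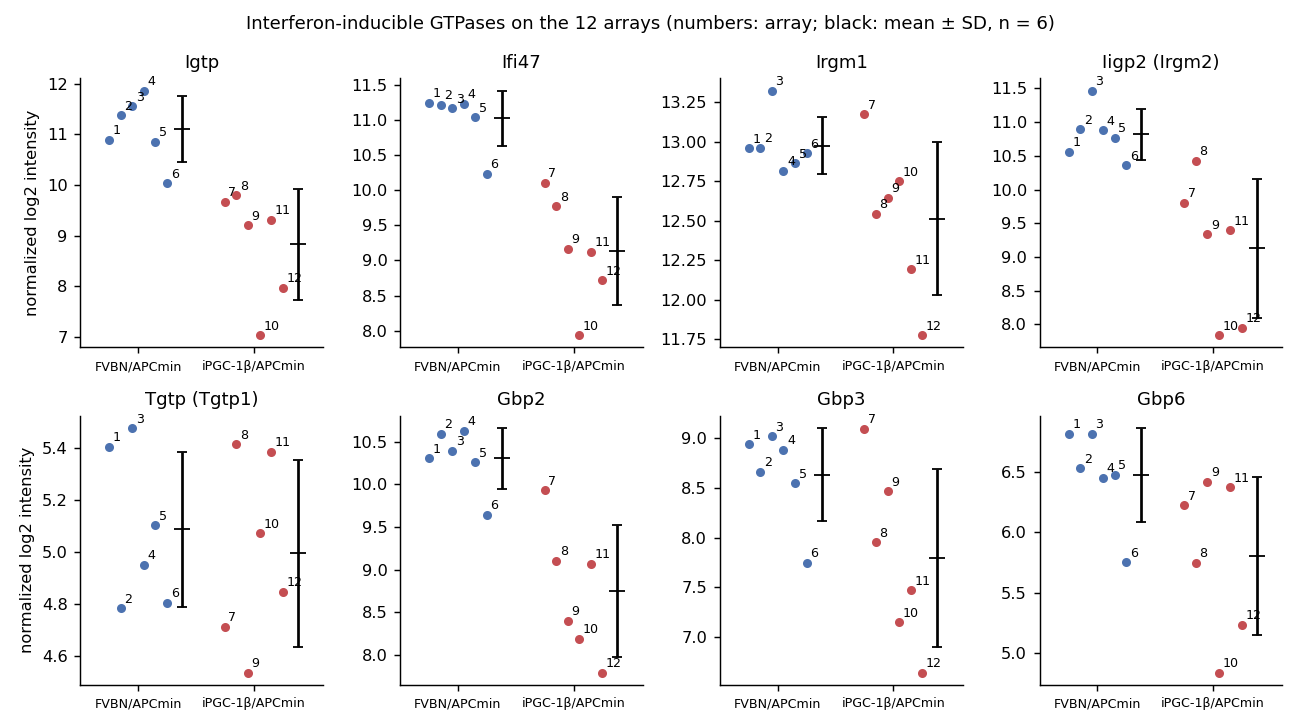
Normalized log2 intensity (vertical axis) of the 8 tested GTPases on each array, by genotype, with array numbers beside the points and the mean ± SD (n = 6) in black. Igtp and Ifi47 separate the groups completely, Irgm1 spans a narrow range at high signal, and array 6 is the lowest FVBN/APCmin array for Igtp, Ifi47, Iigp2, Gbp2, Gbp3 and Gbp6.

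Igtp, a regulatory IRG protein of the endoplasmic reticulum and lipid droplets, had the largest difference of the 8. Its log2 intensity ran from 10.03 through a median of 11.14 to 11.86 in FVBN/APCmin, and from 7.03 through 9.25 to 9.79 in iPGC-1β/APCmin. All 6 iPGC-1β/APCmin arrays lay below all 6 FVBN/APCmin arrays, a separation seen in this direction for 0.884% of all genes. The mean fell from 11.10 ± 0.65 to 8.83 ± 1.09 (SD), a difference of -2.27 (SE 0.45, adjusted p = 0.0177 in limma, exact permutation p = 0.0022, the smallest this test can give). Without array 3 the adjusted p was 0.051 with a difference of -2.18.

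Iigp2, the probe of Irgm2, a regulator found mainly at the Golgi, followed the same order of arrays less completely. Its values were 10.36 (lowest), 10.82 (median) and 11.47 (highest) in FVBN/APCmin, and 7.84, 9.36 and 10.43 in iPGC-1β/APCmin. A single iPGC-1β/APCmin array reached into the FVBN/APCmin range, so 5 of 6 lay below all FVBN/APCmin arrays. It differed by -1.69 (SE 0.40, adjusted p = 0.0358 in limma, exact permutation p = 0.0043). This call was the least stable of the 4: it was kept on leaving out array 6, 7, 8 or 9 and lost on leaving out any of the other 8, with adjusted p of 0.062 to 0.090 and differences of -1.75 to -1.44.

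Irgm1, the regulator known for its part in autophagy and in control of mycobacteria, varied less between arrays than Igtp, Iigp2 or Ifi47. It read 12.82 (lowest), 12.94 (median) and 13.32 (highest) in FVBN/APCmin against 11.78, 12.60 and 13.17 in iPGC-1β/APCmin. Of the iPGC-1β/APCmin arrays 5 lay below every FVBN/APCmin array, and array 7 lay above 5 of the 6. The difference of -0.46 (SE 0.21) did not pass over all genes (limma adjusted p = 0.201). Without array 7 it was -0.59 with an adjusted p of 0.049. A second Irgm1 probe, detected on all 12 arrays, differed by -0.83 (SE 0.23, limma adjusted p over probes 0.062), and the third, detected on 3 arrays of each group, by -0.44 (SE 0.28).

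Ifi47, an effector IRG protein, had the smallest adjusted p of the 8. It ran from 10.23 through 11.19 to 11.25 in FVBN/APCmin and from 7.94 through 9.14 to 10.10 in iPGC-1β/APCmin. The groups did not overlap, and 5 of the FVBN/APCmin arrays lay within 11.04 to 11.25, with array 6 apart at 10.23. It differed by -1.89 (SE 0.32, adjusted p = 0.00848 in limma, exact permutation p = 0.0022), a 3.69-fold lower mean, and it passed with any single array left out.

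The other effectors gave little signal. Tgtp was detected on 2 arrays of each group and ran from 4.78 to 5.48 in FVBN/APCmin and from 4.53 to 5.42 in iPGC-1β/APCmin. These ranges nearly coincide, with a difference of -0.09 (SE 0.19, limma adjusted p = 0.819, 95% confidence interval -0.51 to 0.33). Iigp1, whose probe read 112.9 to 141.9 raw intensity units, was detected on none of the 12 arrays and was not tested. So among the effectors only Ifi47 could be measured well above background here.

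Gbp2, a GBP that coats parasite vacuoles and bacteria, read 9.64 (lowest), 10.35 (median) and 10.63 (highest) in FVBN/APCmin. In iPGC-1β/APCmin it read 7.79, 8.74 and 9.93. Array 7 was the highest of its group and array 6 the lowest of its own, and without that pair the groups stood apart (10.26 to 10.63 against 7.79 to 9.10). The difference over all 12 arrays was -1.56 (SE 0.32, adjusted p = 0.0187 in limma, exact permutation p = 0.0043), a 2.94-fold lower mean. It missed the threshold without array 2 (adjusted p = 0.0505) or array 3 (0.0511). Of the other Gbp2 probes, 1 was detected on 2 arrays and 1 on none.

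Gbp3 and Gbp6, GBPs encoded in the chromosome 3 and chromosome 5 clusters, did not pass. Gbp3 read 7.75 (lowest), 8.78 (median) and 9.02 (highest) in FVBN/APCmin and 6.64, 7.71 and 9.10 in iPGC-1β/APCmin, where the 9.10 is array 7 and the highest of all 12. Its difference was -0.84 (SE 0.37, limma adjusted p = 0.195). Without array 7 it was -1.10 with an adjusted p of 0.034, and its second probe differed by -0.92 (SE 0.37). Gbp6 had low signal, 6.48 ± 0.39 against 5.81 ± 0.66 (SD, n = 6), with a difference of -0.67 (SE 0.30, limma adjusted p = 0.192). Its second probe, detected on 6 FVBN/APCmin and 2 iPGC-1β/APCmin arrays, fell by 0.79 (SE 0.19, limma adjusted p over probes 0.043), against 1.07% of 14827 probes called lower.

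**Figure D2:**
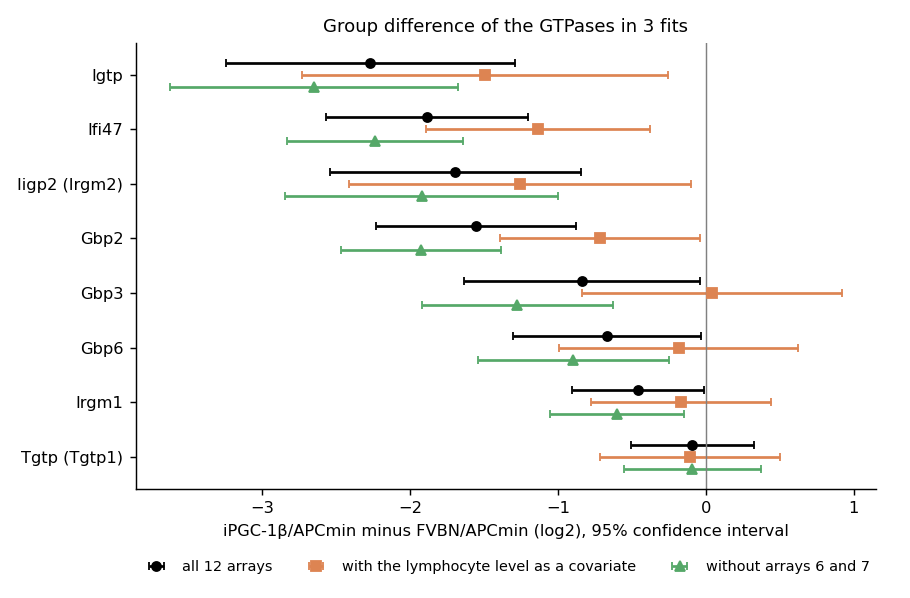
Group difference (horizontal axis, log2, with 95% confidence intervals) of each tested GTPase in 3 fits: all 12 arrays, without arrays 6 and 7, and adjusted for the lymphocyte level. Every interval of Igtp, Ifi47, Iigp2 and Gbp2 lies below 0, and the estimates other than that of Tgtp move up with the covariate, for Gbp3 to 0.04.

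Leaving out arrays 6 and 7 together raised the number of called GTPases from 4 to 5, by Gbp3 (-1.28, limma adjusted p = 0.0104), while the share of all genes called lower rose from 1.23% to 10.3%. Igtp then differed by -2.65 (adjusted p = 0.00125), Ifi47 by -2.24 (9.4e-05), Iigp2 by -1.92 (0.00768) and Gbp2 by -1.93 (0.000148). Gbp6 stopped just short at -0.90 (0.0507). Without array 7 alone 6 GTPases passed, against 8.87% of all genes, and without array 6 alone 4 passed, against 3.69%.

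The GTPases were then set against lymphocyte genes across arrays. T and NK markers were lower in iPGC-1β/APCmin for 22 of 22 tested, of which 7 passed, against 1.23% of all genes called lower. Their median difference was -1.86. Their mean level ran from -0.60 to 1.41 in FVBN/APCmin and from -1.76 to 1.12 in iPGC-1β/APCmin. Itgae, the integrin chain of intraepithelial lymphocytes, fell by 1.43 (limma adjusted p = 0.00855) and Lat, an adaptor of T cell receptor signalling, fell by 2.65 (0.0367). B and plasma cell markers were lower for 17 of 18, of which Faim3, the IgM receptor gene, passed (-5.45, adjusted p = 0.0363). Their mean level ran from -0.99 to 1.84 and from -2.21 to 2.30. Without arrays 6 and 7, 21 of 22 T and NK markers and 15 of 18 B and plasma cell markers were called lower. Of all genes 10.3% were called lower there. Cd8a, Gzmb, Ncr1 and Pax5 were detected on no array.

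The lymphocyte level fell into separate sets of arrays, 1 to 5 and 7 high and 6 and 8 to 12 low, with a gap of 1.99 between them and no other gap above 0.34. A correlation over all 12 arrays would rest on that gap, so the tie was computed within each set of 6 arrays. Among 16 relations the smallest exact permutation p was 0.194 (Benjamini-Hochberg adjusted 0.896), for Gbp3 in the high set (Pearson r = 0.62, Spearman rho = 0.71), and r was -0.33 there without the 2 arrays farthest from the median. In the high set r was above 0 for 2 of 8 GTPases and in the low set for 6 of 8, but without the 2 arrays farthest from the median it was above 0 for 3 of 8 and 0 of 8. Gbp2 in the low set gave r = 0.51 and rho = 0.31 (exact permutation p = 0.297), and r = -0.76 without those 2 arrays. Within sets of arrays alike in lymphocyte genes, no tie was detectable at this number of arrays and over so narrow a range. Cutting at the gap left a lymphocyte level of 1.21 to 1.65 in the high set and -1.93 to -0.77 in the low set. A tie over the wider range of all 12 arrays cannot be judged within these sets. Each set holds an array of the other genotype at its highest lymphocyte level, array 7 (1.65) in the high set and array 6 (-0.77) in the low set. No group term was used, so r over a whole set mixes the genotype difference with any tie and cannot separate them.

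**Figure D3:**
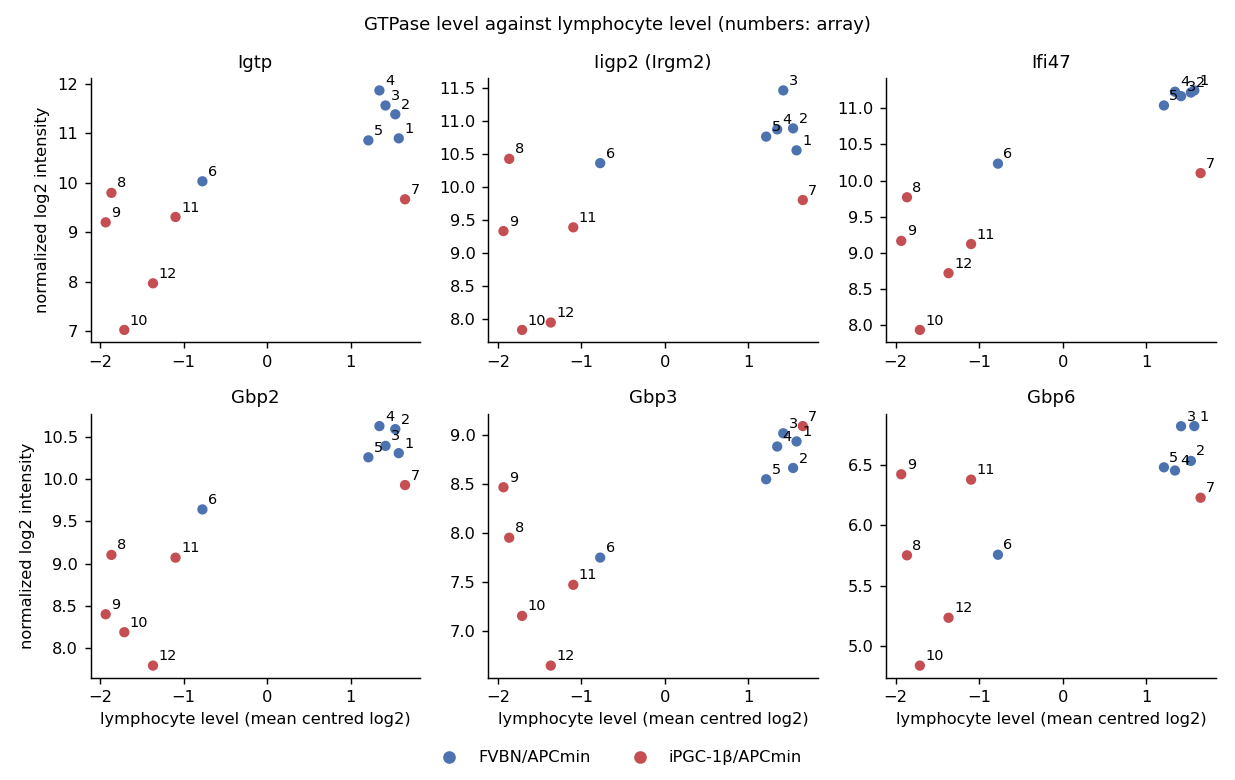
Normalized log2 intensity of Igtp, Iigp2, Ifi47, Gbp2, Gbp3 and Gbp6 (vertical axes) against the lymphocyte level (horizontal axis, mean of centred log2 values). Array numbers and genotype colours are shown, and the other tested GTPases, Irgm1 and Tgtp, are not drawn. The arrays form a high and a low set of 6, with array 7 in the high set and array 6 in the low one, and Igtp and Ifi47 on array 7 lie below all of arrays 1 to 5.

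Arrays 6 and 7 are the ones on which genotype label and lymphocyte level part. The adenoma and Wnt level and the macrophage and dendritic cell level part from the label on them too. Between arrays 8 to 12 and arrays 1 to 5 lay 3 of 8 GTPases on array 6 (Igtp, Ifi47 and Gbp2) and 2 of 8 on array 7 (Ifi47 and Gbp2). On array 7, with the highest lymphocyte level of all 12, Igtp read 9.67, below the 10.85 to 11.86 of arrays 1 to 5 and inside the 7.03 to 9.79 of arrays 8 to 12. Ifi47 read 10.10 there, between the 11.04 to 11.25 of arrays 1 to 5 and the 7.94 to 9.77 of arrays 8 to 12. In all, 6 of 8 GTPases were lower on array 7 than on each of arrays 1 to 5, against 24.2% of all genes, and the exceptions were Irgm1 and Gbp3. The 6 include Tgtp, which was not detected on array 7 and read 4.71 there against a lowest 4.78 on arrays 1 to 5, near background. Among genes whose arrays 8 to 12 all lay below arrays 1 to 5, this held for 5 of 7 GTPases and for 17.4% of the 938 genes. Over all tested genes of a list, whatever their place on arrays 8 to 12, array 7 was below each of arrays 1 to 5 for 15 of 24 interferon-γ targets but for 0 of 5 other GTPases of these families. It was so for 5 of 22 T and NK markers, 1 of 18 B and plasma cell markers and 4 of 15 macrophage and dendritic cell markers. On array 6, with a low lymphocyte level, 6 of 8 GTPases were below each of arrays 1 to 5 and 4 were above each of arrays 8 to 12. Over all 10967 genes this held for 2859 and 1988. Among genes whose arrays 8 to 12 all lay below arrays 1 to 5, array 6 was below arrays 1 to 5 for 6 of 7 GTPases and 758 of 938 genes. It was above arrays 8 to 12 for 4 of those 7 and 451 of those 938, so the GTPases lay near the share of those genes. These are single arrays, so their places carry no replicate check.

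With the lymphocyte level as a covariate no GTPase passed, and 5 of 10967 genes did (0.0456%, and 0.0182% counting lower calls alone). Genotype and lymphocyte level are partly confounded, with 0.50 of the variance of that level lying between the groups. The difference shrank from -2.27 to -1.49 for Igtp (95% confidence interval -2.73 to -0.26, limma adjusted p = 0.375) and from -1.89 to -1.14 for Ifi47 (-1.90 to -0.38, adjusted p = 0.258). For Gbp2 it was -0.72 (adjusted p = 0.437), for Irgm1 -0.17 and for Gbp3 0.04. Gbp2 was the single GTPase with a called slope on the lymphocyte level, 0.40 log2 units per unit (SE 0.11, limma adjusted p = 0.0286), against 6.19% of all genes with a called positive slope. That slope was 0.42 without array 6 (adjusted p = 0.107), 0.33 without array 7 (0.411) and 0.09 without both. The slope of Ifi47 was 0.36 (adjusted p = 0.0832) and that of Igtp 0.37 (0.296).

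The other tested members of these families gave no call. Gbp1, the neighbour of Gbp2 in the chromosome 3 cluster, differed by -1.59 (SE 0.48, limma adjusted p = 0.072), and Gvin1, a very large interferon-inducible GTPase, by -1.58 (SE 0.41, adjusted p = 0.0509). Both passed without arrays 6 and 7, at -2.07 (adjusted p = 0.00475) and -2.15 (8.9e-05), against 10.3% of all genes called lower. Gvin1 also had a called slope on the lymphocyte level (0.59, adjusted p = 0.00329), and its value on array 7, 8.52, lay inside the 8.43 to 9.29 of arrays 1 to 5. Gbp10 differed by -0.65, the dynamin-like antiviral GTPase Mx2 by 0.22 and Irgq, an IRG relative not known to respond to interferon, by 0.44 (adjusted p = 0.173, 0.777 and 0.211). Irgc1, Gbp4, Gbp5, Gbp8, Gbp11 and Mx1 were detected on 3 arrays at most and were not tested.

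Upstream of the GTPases, 2 of 16 tested genes of interferon-γ, its receptor and signalling were called lower and none higher, with a median of -0.44. Of all genes 1.23% were called lower. Irf8, a partner of IRF1 on ISRE elements, read 9.91 (lowest), 10.37 (median) and 10.54 (highest) in FVBN/APCmin and 8.19, 8.82 and 10.36 in iPGC-1β/APCmin. A single iPGC-1β/APCmin array reached into the FVBN/APCmin range, and Irf8 fell by 1.36 (SE 0.29, limma adjusted p = 0.0259). Irf1 itself differed by -1.07 (adjusted p = 0.0556) and Stat4, which acts in interleukin-12 signalling, by -2.06 (0.0862). Ifng, the ligand gene, was detected on 3 arrays and not tested. Both calls depended on single arrays: the count was 0 on leaving out any of arrays 1 to 5 or 10 to 12, 5 without array 6, 6 without array 7 and 8 without both. Of all genes 3.69% were called lower without array 6, 8.87% without array 7 and 10.3% without both.

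Among 24 tested targets of interferon-γ, an inducer of the GTPases, 11 were called lower, against 1.23% of all genes. A difference below 0 was seen for 22 and the median was -1.12. Indo (Ido1), a tryptophan-degrading enzyme, fell by 2.30 (limma adjusted p = 0.00305) and Ubd, a ubiquitin-like modifier, fell by 3.92 (0.00798). Cd274, the gene of PD-L1, fell by 2.44 (0.00946) and Nos2, the inducible nitric oxide synthase detected on 2 iPGC-1β/APCmin arrays, fell by 1.75 (0.00777). The other 7 called were Ciita, Cxcl9, Psme1, AI451557 (Nlrc5), H2-Ab1, Casp1 and Casp4. The count was 6 to 15 with 1 array left out, lowest without any of arrays 1 to 5 or 10, 7 without array 12, 17 without arrays 6 and 7, and 0 with the lymphocyte covariate. Of all genes 10.3% were called lower without arrays 6 and 7, and 0.0182% with the lymphocyte covariate.

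Of 23 tested type I interferon targets none was called in either direction. Their median difference was 0.03, with 11 below and 12 above 0. The mean level of these targets ran from -0.33 to 0.38 in FVBN/APCmin and from -0.73 to 0.98 in iPGC-1β/APCmin. It was 0.98 and 0.73 on arrays 8 and 9, and -0.71 and -0.73 on arrays 10 and 12. The smallest p belonged to Parp14 (-1.20, limma adjusted p = 0.0762) and Zbp1 (-0.61, 0.125), followed by Oas1a (0.58, 0.128) and Oas1g (1.34, 0.144). Without arrays 6 and 7, 2 of the 23 were called lower, against 10.3% of all genes. Whether the lists differ from each other was not tested. Of 23 genes of the autophagy conjugation machinery, which helps to place IRG proteins and GBPs on vacuoles, none was called and the median was -0.01. With arrays 6 and 7 left out, 3 were called higher, against 1056 of all 10967 genes. Atg10 (limma adjusted p = 0.0426) and Ulk1 (0.0394) were among these 3. Over all 12 arrays Atg10 differed by 0.73 (adjusted p = 0.0738), Ulk1 by 0.58 (0.125), Sqstm1, the p62 receptor, by -0.52 (0.133) and Calcoco1 by 0.49 (0.203).

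**Figure D4:**
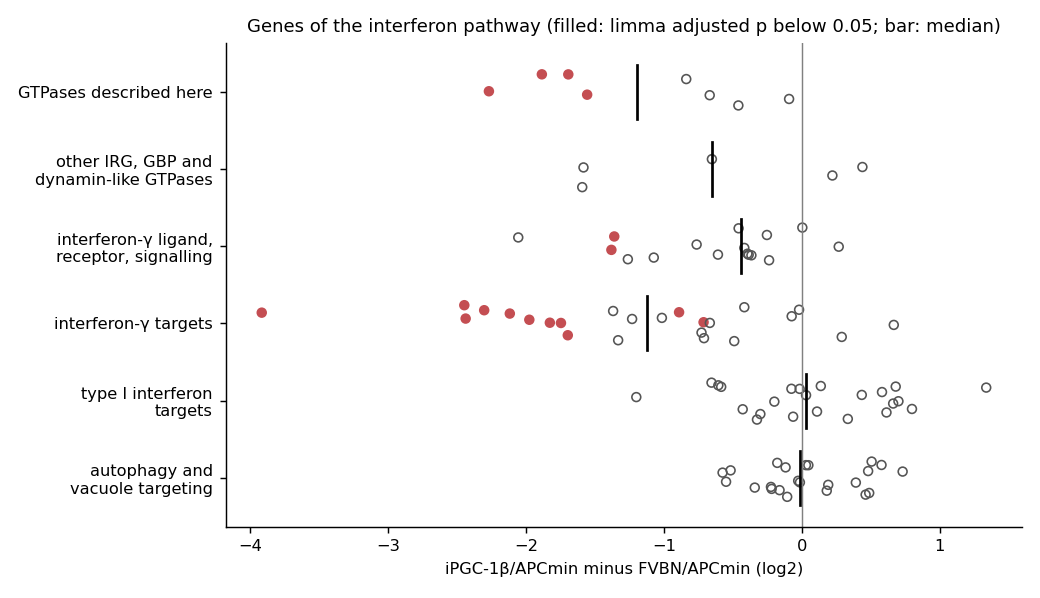
Group difference (horizontal axis, log2) of each tested gene in the lists of GTPases, interferon signalling, interferon targets and autophagy, with filled points past a limma adjusted p of 0.05 and a bar at the median of each list. The GTPases and the interferon-γ targets lie mostly below 0, with medians of -1.20 and -1.12, and type I targets and autophagy genes lie around 0.

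Macrophages and dendritic cells also make these GTPases. None of 15 tested markers of those cells was called, 12 differed downward and the median was -0.50. Without arrays 6 and 7, 6 of them were called lower, against 10.3% of all genes. Cd83, an activation marker of dendritic cells, differed by -3.26 (limma adjusted p = 0.0663), the lymph node homing receptor Ccr7 by -1.19 (0.0901) and Ly86 by -1.93 (0.114). Each of these genes had a called positive slope on the lymphocyte level (1.61, 0.57 and 1.12). Of the 15 markers 6 had one, against 6.19% of all genes. With the lymphocyte level as a covariate Cd83, Ccr7 and Ly86 differed by 0.13, 0.01 and 0.44 (SE 0.35, 0.30 and 0.33). The mean level of the list ran from -0.76 to 0.98 in FVBN/APCmin and from -1.22 to 0.61 in iPGC-1β/APCmin, and Itgam, Itgax, Msr1, Cd209a, Clec9a and Xcr1 were detected on no array. With the macrophage and dendritic cell level as a covariate no GTPase was called, against 51 of all 10967 genes called lower. Ifi47 then differed by -1.48 (limma adjusted p = 0.0532).

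Among 9595 ranked genes outside these families, 6 of the 8 with the pattern most like the mean GTPase level over the 12 arrays are given here. Samhd1, an enzyme that degrades deoxynucleotides, had a Pearson r of 0.95 and Tap2, a peptide transporter of antigen presentation, 0.94. Myo1f, a myosin of leukocytes, had 0.93 and Pde1b, a phosphodiesterase, 0.93. Trafd1, an interferon-responsive inhibitor of innate signalling, and Hira, a histone chaperone, had 0.93. The median r over the ranked genes was -0.00. These r describe points that share arrays, genotype and the sets of high and low lymphocyte level. Of these 6, Trafd1 passed the group test and fell by 0.82 (SE 0.19, limma adjusted p = 0.0357) with no overlap between groups.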

How the data were processed

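The deposited unnormalized table holds linear signal intensity per probe and array, per the file headers, and a detection p-value against negative controls, also per the file headers. The authors' normalized table, also deposited as linear intensity and quantile-normalized as read from its values, served as an alternative. The submitters' processing notes name GenomeStudio without a version.

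In R 4.3.3, limma 3.58.1 (neqc, offset 16) turned the deposited intensity into background-corrected, quantile-normalized log2 values. A probe was kept if detected at p below 0.05 on at least 4 arrays (14827 probes), and the brightest probe of a symbol stood for its gene. Groups came from the sample titles. Differences were tested with limma (lmFit, eBayes with trend) and Benjamini-Hochberg adjustment over 10967 genes, with a threshold of 0.05. Probe levels are not comparable between genes, and the number of arrays limits precision. The fit was tested on simulated data.

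The GTPases and gene lists were chosen with earlier results of these data known. Named were all GTPases, the 4 genes with the smallest p per pathway list, 3 per immune marker list, and the 8 genes most like the mean GTPase level, except that 2 genes under this rule are not reported here. Irf1, Stat4, Parp14 and others that missed the threshold are named by that rule, and the 7 further called interferon-γ targets, Osta, Nr1h4 and undetected genes were named after their values were seen. Alternatives covered background correction, scaling, filters, probe choice, array weights, immune covariates and left-out arrays. Counts of called list genes, single probes and lymphocyte slopes under left-out arrays were added after seeing the data.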

Additional observations from a re-analysis of the deposited data

Results flagged for a closer look

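A sample far from its group was looked for in 26 groups of 6 arrays, by the gap to the nearest other array divided by the group's range, against Dixon's 95% critical value for groups of that size. Chance flags about 1 in 20 groups, and 5 were flagged, all in FVBN/APCmin. Array 6 was low in Ifi47 (10.23 against 11.04 on the nearest array, ratio 0.795), Gbp6 (5.76 against 6.45, ratio 0.655), Gbp3 (7.75 against 8.55, ratio 0.630) and Gbp2 (9.64 against 10.26, ratio 0.6251). Array 3 was high in Irgm1 (13.32 against 12.96, ratio 0.714). Array 6 is also the FVBN/APCmin array with the low lymphocyte level, and the part of that level in these values was not tested.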

How the results depend on the processing

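The number of GTPases called lower was 4 and fell to 0 with the lymphocyte level, the T and NK level or the macrophage and dendritic cell level as a covariate. With 1 array left out it ran from 1 (without array 3) to 6 (without array 7), and was 2 without array 2. Genes called in either direction numbered 378, against 200 with no filter, 2403 with array quality weights, 5 with the lymphocyte and 5 with the T and NK covariate, 118 with the macrophage covariate, 2184 without arrays 6 and 7, and 129 to 1821 with 1 array left out. Genes called lower numbered 135, against 89 at a common 75th percentile, 70 with no filter, 1211 with array weights, 2, 3 and 51 with those covariates, 1128 without arrays 6 and 7, and 35 to 973 with 1 array left out. Array weights moved the lower share of calls from 35.7% to 50.4%. The Gbp3 difference reversed to 0.0413 with the lymphocyte and 0.0304 with the T and NK covariate, and it passed with array weights (-1.23, limma adjusted p = 0.00774), as did Gbp6 (-1.04, 0.0159). The differences of Igtp, Ifi47, Iigp2 and Gbp2 kept their direction in all 26 alternatives each. Some of these settings also differ in the number of arrays or of genes tested, and the cause of the changes was not tested. No paired analysis was possible because the groups share no replicate numbers. Low signal limits Tgtp, Gbp6 and Iigp1.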
